A study of Drosophila melanogaster with 6 samples.

Results

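Apical and basolateral polarity genes were examined through 8 genes picked by symbol from the platform annotation of the arrays: the Scribble module genes l(2)gl, dlg1 and scrib, the apical genes baz, aPKC, par-6 and sdt, and the adherens junction gene shg. They were chosen with earlier results of these data known. All 8 were measured, each by 1 feature, among 11303 tested features that include 10117 named genes. Levels came from 6 arrays hybridised with biotin-labelled total RNA of Drosophila melanogaster wing discs, the larval sacs of epithelium that become the wing and notum. The arrays comprised 3 samples in which the apterous (ap) driver expressed YAP/Yki and 3 in which it expressed YAP/Yki with dTcf/Pan-RNAi. Yki is the growth-promoting transcriptional effector of the Hippo pathway, and Pan (dTcf) is the transcription factor through which Wg, the fly Wnt, acts on its targets. Discs were collected on day 7 after the transgenes were induced, and every sample carried YAP/Yki. The sample titles name neither discs without YAP/Yki nor a control hairpin, so dependence on YAP/Yki and effects of the hairpin other than through Pan were not tested. The ap driver is active in dorsal cells of the disc, so RNA of ventral cells, in which the driver is silent, is part of every sample. The pan transcript was not analysed here and its depletion was not checked. In such whole-disc RNA, fewer cells of a type and less RNA per cell cannot be told apart.

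Arrays correlated at 0.994 to 0.996 within groups and 0.980 to 0.986 between them. Of 11 measured genes of wing disc epithelium, 6 were higher and 3 lower with Pan RNAi at an adjusted p under 0.05. Their log2 summed level was 14.02 to 14.09 in YAP/Yki arrays and 14.25 to 14.30 in those with Pan RNAi. Those with the lowest p were tsh (log2 change 1.06) and bi (0.63), which rose, and nub (−1.12) and rn (−0.70), which fell. The dorsal selector gene ap had a mean log2 level of 10.89 without and 11.27 with Pan RNAi. Markers of other cell types were counted by the same threshold, at which 12.1% of all features were higher and 13.4% lower. Of 8 measured haemocyte markers, 5 were higher and 2 lower, and their log2 summed level was 10.97 to 11.10 in YAP/Yki arrays and 11.34 to 11.47 in those with Pan RNAi. Of 8 myoblast markers, 5 were lower and 1 higher, with a summed level of 12.20 to 12.26 against 11.95 to 12.03. Of 9 tracheal markers, 5 were lower (14.14 to 14.20 against 13.71 to 13.86), and of 6 muscle markers, 2 were lower (10.06 to 10.08 against 9.72 to 9.87). Of 9 neuron and glia markers, 2 were higher (10.83 to 10.86 against 10.96 to 11.09), and 5 of the 9 had a mean level under 7. Of 3 fat body markers, 0 passed (9.58 to 10.07 against 9.39 to 9.52), with 1 at an unadjusted p under 0.05 in limma, a threshold that at least 25.5% of all features met. No feature is listed at 0. The part of these cell types in the results below was not tested.

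Epithelial cells keep an apical and a basolateral membrane apart by protein complexes that exclude each other. Scribble, Discs large (dlg1) and Lethal giant larvae (l(2)gl) form the basolateral Scribble module, while Bazooka (baz), Par-6 and atypical protein kinase C (aPKC) form the apical Par complex and Crumbs, Stardust (sdt) and Patj the apical Crumbs complex. The kinase aPKC phosphorylates Lgl and drives it off the apical membrane, and Lgl in turn holds aPKC activity back laterally. Loss of any Scribble module gene in an imaginal disc gives neoplastic overgrowth, which is why the genes are called neoplastic tumour suppressors. The module, aPKC and Crumbs also act on Hippo signalling and so on Yki in this tissue.

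All 3 genes of the Scribble module had higher transcript levels with Pan RNAi, by 1.19-fold to 1.26-fold, and the apical scaffold gene sdt was higher by a similar amount. The transcripts of aPKC and par-6, the kinase and its partner, had changes of 0.06 and 0.05 on the log2 scale that did not pass the test. Thus 4 of the 8 genes were called higher and 0 lower at an adjusted p under 0.05 (limma with Benjamini-Hochberg adjustment over all features). At an unadjusted p under 0.05 in limma were 6 of the 8. The share of all features under that unadjusted threshold was not computed, but it is at least the 25.5% that passed the adjusted one. The adjusted threshold called 12.1% of all features higher and 13.4% lower, or 17.7% and 18.8% of the 3688 features whose mean level lay within the range of the 8 genes (9.29 to 11.97). Over all features that is 1369 higher and 1518 lower, a split that became 2096 and 1082 with each array centred on its median. Each of these 2 directions was also sensitive to single arrays: the higher count was 789 without YAP/Yki replicate 2, 809 without YAP/Yki replicate 3 and 765 without Pan RNAi replicate 1, and the lower count was 1001 without YAP/Yki replicate 3 and 979 without Pan RNAi replicate 1. None of the 8 genes reached a 2-fold change, which 1.53% of features did at an adjusted p under 0.05. Because the 8 genes were chosen with earlier results known, their counts beside these shares are a description. The gene lists below are set beside the shares of all features, though features at the levels of the 8 genes were called more often.

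The gene l(2)gl encodes a WD40-repeat protein and is the founding gene of this class of tumour suppressors. Its log2 level was 10.69, 10.66 and 10.72 in the 3 YAP/Yki arrays and 11.01, 11.09 and 10.96 in the 3 arrays with Pan RNAi. The groups lay well apart, and the lowest array with Pan RNAi was above the highest without it. The change was 0.33 ± 0.05 (SE of the limma fit, adjusted p = 0.00528), with a 95% interval of 0.21 to 0.45 or 1.16-fold to 1.37-fold. It was the largest change among the 8 genes.

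The gene dlg1 encodes a membrane-associated guanylate kinase, a scaffold with PDZ domains. It was at 10.46, 10.49 and 10.45 without and 10.72, 10.73 and 10.78 with Pan RNAi, again with no overlap. The change was 0.27 ± 0.04 (95% interval 0.17 to 0.38, adjusted p = 0.00567), or 1.21-fold.

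The gene scrib encodes a scaffold with leucine-rich repeats and PDZ domains. Its levels were 10.34, 10.28 and 10.34 without Pan RNAi. With Pan RNAi they were 10.56, 10.57 and 10.57, the tightest group of any of the 8 genes (SD 0.01). The change was 0.25 ± 0.04 (95% interval 0.15 to 0.35, adjusted p = 0.00764), or 1.19-fold. For each of the 3 module genes the exact two-sided permutation test over the 6 arrays gave p = 0.1, the smallest that 3 against 3 allows.

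**Figure D1:**
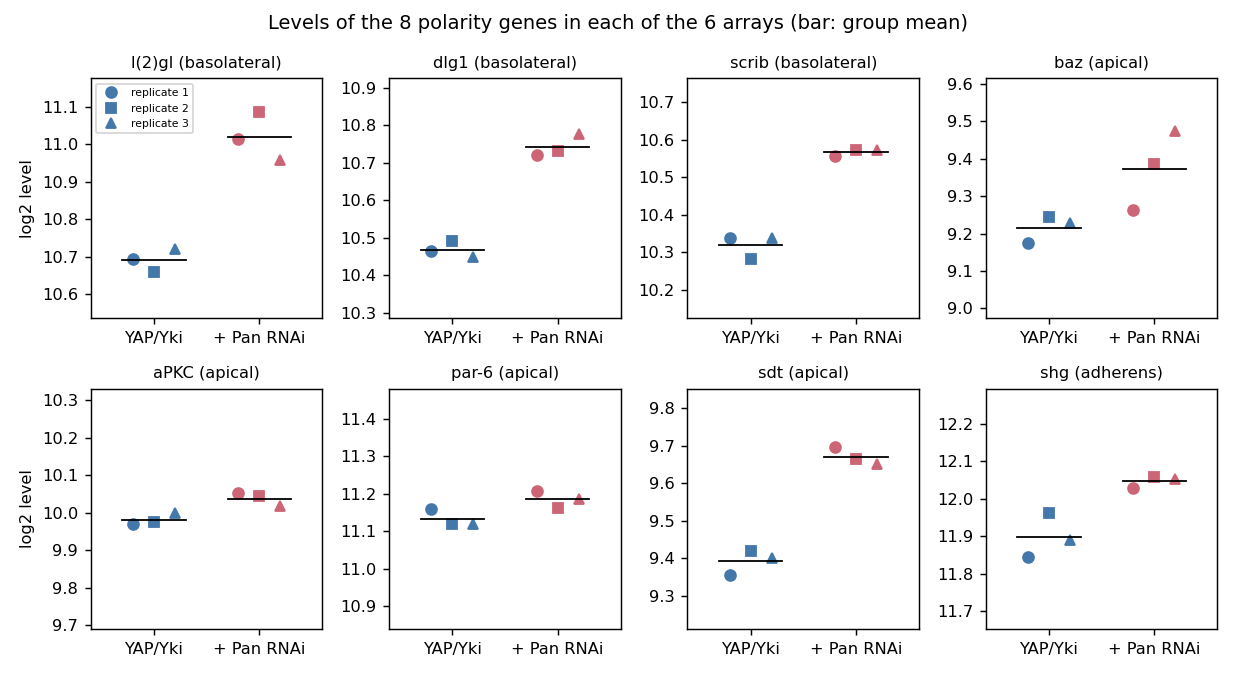
Log2 level (y axis) of each of the 8 genes in the 3 YAP/Yki arrays (blue) and the 3 arrays with added Pan RNAi (red); symbols mark the replicate, bars are group means, and every panel spans the same height. The groups stand far apart for l(2)gl, dlg1, scrib and sdt and lie close for aPKC and par-6.

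Among the apical genes, sdt stood with the Scribble module. It encodes Stardust, the guanylate kinase scaffold that binds Crumbs, and was at 9.36, 9.42 and 9.40 without and 9.70, 9.66 and 9.65 with Pan RNAi. The arrays with Pan RNAi were all above the others. The change was 0.28 ± 0.04 (95% interval 0.18 to 0.38, adjusted p = 0.00554), or 1.21-fold.

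The Par complex genes had smaller differences. For aPKC the levels were 9.97, 9.98 and 10.00 without and 10.05, 10.04 and 10.02 with Pan RNAi, and for its regulatory partner par-6 they were 11.16, 11.12 and 11.12 against 11.21, 11.16 and 11.19. In each case the groups did not overlap, but only narrowly. The aPKC change was 0.06 ± 0.04 (95% interval −0.04 to 0.15, adjusted p = 0.35) and the par-6 change 0.05 ± 0.04 (95% interval −0.05 to 0.15, adjusted p = 0.396). Neither change passed the test, and the upper ends of the intervals are 1.11-fold. The size depended on the scaling: with each array centred on its median the changes were 0.11 for aPKC (adjusted p = 0.106) and 0.11 for par-6 (adjusted p = 0.129), and after quantile normalization that of par-6 was 0.08 (adjusted p = 0.200).

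The PDZ scaffold gene baz, which positions the Par complex and the adherens junction, was at 9.17, 9.24 and 9.23 without Pan RNAi. With Pan RNAi it was at 9.26, 9.38 and 9.47, the widest spread of any of the 8 genes (SD 0.11). The lowest of these lay just above the highest array without Pan RNAi. The change of 0.16 ± 0.06 (adjusted p = 0.112) did not pass the test, and it was 0.11 without Pan RNAi replicate 3 and 0.21 without Pan RNAi replicate 1.

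The gene shg encodes E-cadherin, the adhesion receptor of the adherens junction. Its levels were 11.84, 11.96 and 11.89 without and 12.03, 12.06 and 12.05 with Pan RNAi. The groups did not overlap, and the change was 0.15 ± 0.05 (95% interval 0.03 to 0.26), with an adjusted p of 0.0637. This call depended on the setting: the adjusted p was 0.0341 after centring each array on its median, 0.0462 after quantile normalization, 0.0352 with dim features left out and 0.0177 with an intensity trend in the variance model. All 8 genes thus had higher levels in every array with Pan RNAi than in any without, which was so for 23.4% of all features.

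**Figure D2:**
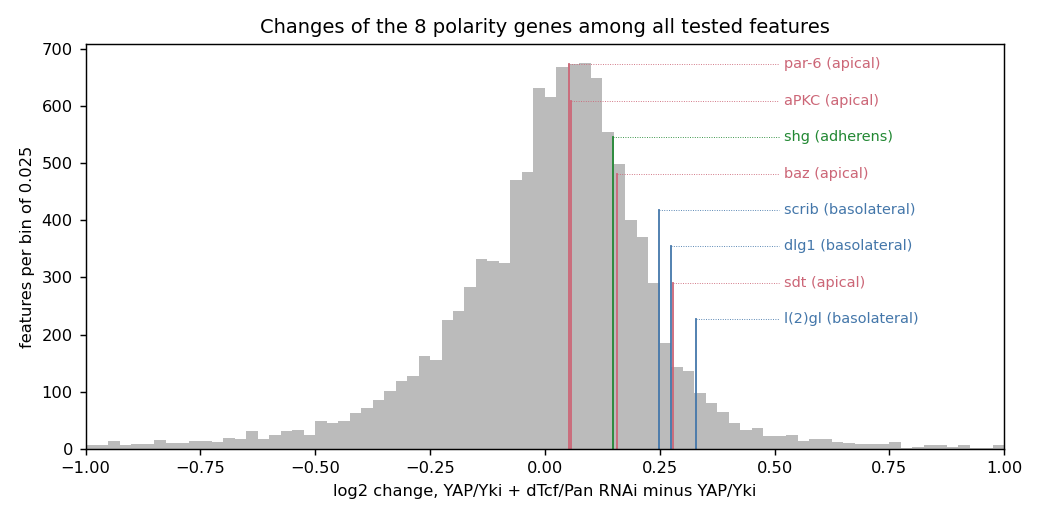
Histogram of the log2 change (x axis, Pan RNAi minus YAP/Yki alone) of the tested features in bins of 0.025, with 189 features beyond −1 or 1 not drawn. Vertical lines mark the 8 genes, their heights serving only to separate the labels; aPKC and par-6 lie in the bulk and l(2)gl, sdt, dlg1 and scrib on the upper flank.

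Set side by side, the 3 basolateral genes changed by 0.25 to 0.33 with a mean of 0.28, and the 4 apical genes by 0.05 to 0.28 with a mean of 0.14. The median of all features was 0.03. Relative to each gene's own mean over the 6 arrays, the basolateral genes averaged −0.14, −0.16 and −0.13 without and 0.13, 0.16 and 0.13 with Pan RNAi. The apical genes averaged −0.08, −0.06 and −0.06 against 0.06, 0.07 and 0.08. Each array thus had a smaller deviation for the apical than for the basolateral genes, while sdt alone among the apical genes changed as much as the module did.

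Whether single basolateral and apical genes changed unequally was examined by the log2 ratio of the 2 genes within each array, for all 12 pairs. These ratios were chosen after the data were seen, and they recombine the levels given above. How often ratios of other gene pairs separate the groups was not computed, so the counts below have no background share. A ratio within an array is not moved by centring the array. The ratios of the 3 module genes to aPKC were higher with Pan RNAi by 0.19 to 0.27, and those to par-6 by 0.20 to 0.28. In all 6 of these pairs the groups did not overlap. To baz the ratios changed by 0.09 to 0.17, and the groups did not overlap in 1 of 3 pairs, dlg1 to baz. To sdt they changed by −0.03 to 0.05, and the groups overlapped in all 3 pairs. The exact two-sided permutation test gave p = 0.1 for each of the 7 pairs that did not overlap (adjusted p = 0.171 over the 12), the smallest that 3 against 3 arrays can give.

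**Figure D3:**
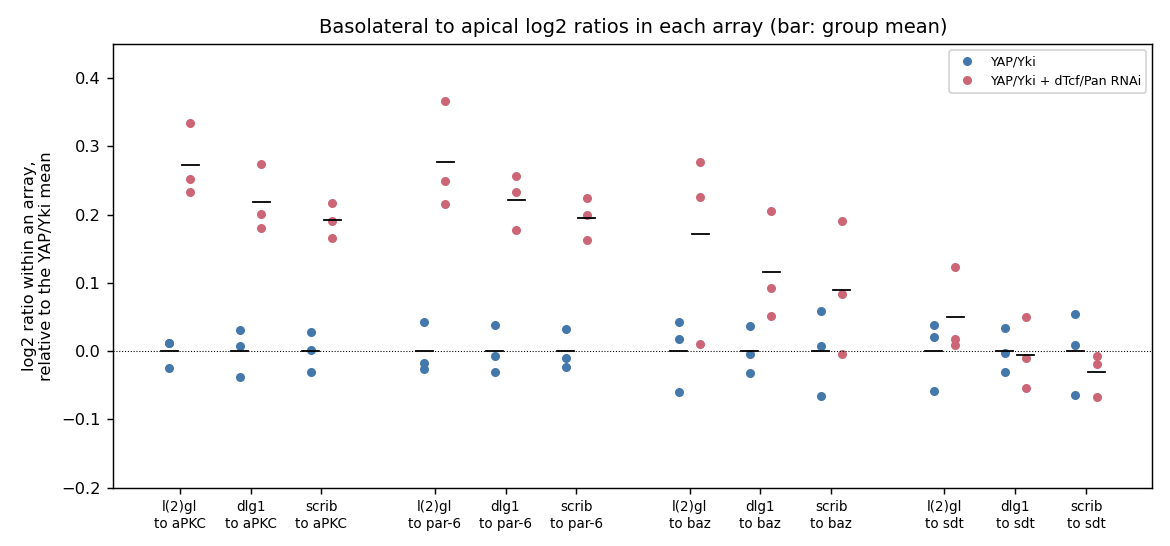
Log2 ratio of each Scribble module gene to each apical gene within an array, relative to the mean of the YAP/Yki arrays (y axis), for YAP/Yki arrays (blue) and arrays with Pan RNAi (red); bars are group means. The ratios to aPKC and par-6 separate the groups, those to baz mostly do not, and those to sdt overlap.

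The rest of the apical machinery was mixed. Of 8 measured genes listed beside the Par and Stardust genes, 4 were higher and 0 lower, with a median of 0.16 against 0.03 for all features (12.1% of all features were called higher). The transmembrane organiser crb, the partner that Stardust binds, changed by 0.16 ± 0.05 (adjusted p = 0.0513), and Patj, another scaffold of that complex, by 0.01 ± 0.05 (adjusted p = 0.874). The change of crb passed with each array centred on its median (0.21, adjusted p = 0.0257), after quantile normalization (0.0320), with dim features left out (0.0276) and with an intensity trend (0.0172). Within 1 complex, then, sdt passed the test, crb just missed it and Patj was at 9.72 without and 9.73 with Pan RNAi.

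The 4 that rose were kibra (0.46 ± 0.05, adjusted p = 0.00219), an apical activator of the Hippo pathway, Moe (0.21 ± 0.04, adjusted p = 0.0146), which ties the apical membrane to actin, kst (0.20 ± 0.04, adjusted p = 0.0160), the heavy beta-spectrin that binds Crumbs, and yrt (0.16 ± 0.05, adjusted p = 0.0405), a lateral FERM-domain antagonist of Crumbs. The call of kibra held with any single array left out. The count was 1 without YAP/Yki replicate 3 and 1 without Pan RNAi replicate 1, and yrt missed the threshold whichever array was left out (adjusted p = 0.0681 to 0.109).

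Among 15 measured partners of the Scribble module, lateral kinases and spindle regulators, 6 rose and 0 fell, beside 12.1% and 13.4% of all features, with a median of 0.07. The mitotic kinase gene aurB had the largest change (0.56 ± 0.05, adjusted p = 0.000643). Aurora kinases can phosphorylate Lgl, but aurB is foremost a gene of cell division. The gene mud (0.25 ± 0.04, adjusted p = 0.00937), which anchors the mitotic spindle, also rose, as did the ubiquitin ligase gene Nedd4 (0.23 ± 0.05, adjusted p = 0.0179) and vari (0.18 ± 0.04, adjusted p = 0.0219), a guanylate kinase scaffold of septate junctions. The other two, par-1 (0.18 ± 0.04, adjusted p = 0.0253), the lateral kinase that phosphorylates Bazooka, and Khc-73 (0.21 ± 0.06, adjusted p = 0.0490), a kinesin that binds Discs large, are named here after their values were seen. In contrast gukh, whose product binds Discs large and Scribble, was at 10.67 without and 10.58 with Pan RNAi (adjusted p = 0.161), also named after its value was seen. The count of 6 fell to 2 without YAP/Yki replicate 3, Pan RNAi replicate 1 or Pan RNAi replicate 2, to 3 without YAP/Yki replicate 2 or Pan RNAi replicate 3, and to 4 without YAP/Yki replicate 1.

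Junction genes went both ways. Of 12 measured partners of the adherens junction, 4 rose and 1 fell, beside 12.1% and 13.4% of all features, with a median of 0.06. The actin linkers cno (0.22 ± 0.04, adjusted p = 0.0116) and pyd (0.18 ± 0.04, adjusted p = 0.0209) rose, as did the protocadherin gene ds (0.25 ± 0.04, adjusted p = 0.00718) and jub (0.14 ± 0.04, adjusted p = 0.0492), a junctional LIM protein of the Hippo pathway that is named here after its value was seen. The count of 4 was 2 without any of YAP/Yki replicates 2 and 3 and Pan RNAi replicates 1, 2 and 3. By contrast alpha-Cat, which joins E-cadherin to actin, was at 10.96 in the 2 groups alike (change 0.00 ± 0.04, 95% interval −0.09 to 0.10, adjusted p = 0.942). The member that fell was CadN, which encodes N-cadherin. It was at 8.46, 8.55 and 8.32 without and 7.36, 7.60 and 7.66 with Pan RNAi, so it changed by −0.90 ± 0.10 (adjusted p = 0.00153). Of the 8 measured markers of myoblasts, 5 fell as well, 2 did not pass and 1, sns, rose by 1.53. The part of these cells in the change of CadN was not tested.

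Septate junctions lie below the adherens junctions and share the lateral membrane with the Scribble module. Of 24 measured genes, 5 rose and 5 fell, with a median of 0.08, against 12.1% and 13.4% of all features. The core components cora (0.09 ± 0.05, adjusted p = 0.220) and Nrx-IV (0.11 ± 0.05, adjusted p = 0.130) did not pass, though Nrx-IV did with each array centred on its median (0.17, adjusted p = 0.0461). The falls were led by nrv1, a beta subunit of the sodium pump (−0.79 ± 0.09, adjusted p = 0.00221), pasi2 (−0.33 ± 0.04), wun (−0.29 ± 0.04), a lipid phosphatase gene, and bou (−0.29 ± 0.05), a Ly6 protein gene, followed by Lac (−0.19 ± 0.05), named after its value was seen. The gene of another beta subunit in the list, nrv2, did not fall (0.13 ± 0.04, adjusted p = 0.0801). It too was named after its value was seen. The genes that rose were bark (0.32 ± 0.06, adjusted p = 0.0138), of tricellular junctions, and, named after their values were seen, the adhesion genes Nrg (0.20) and Cont (0.16), the claudin gene sinu (0.18) and the Ly6 gene cold (0.18). Without YAP/Yki replicate 2 or YAP/Yki replicate 3 the count of rises was 0, without Pan RNAi replicate 1 or Pan RNAi replicate 2 it was 1, and without YAP/Yki replicate 1 or Pan RNAi replicate 3 it was 3. The falls numbered 4 to 5 in these fits.

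**Figure D4:**
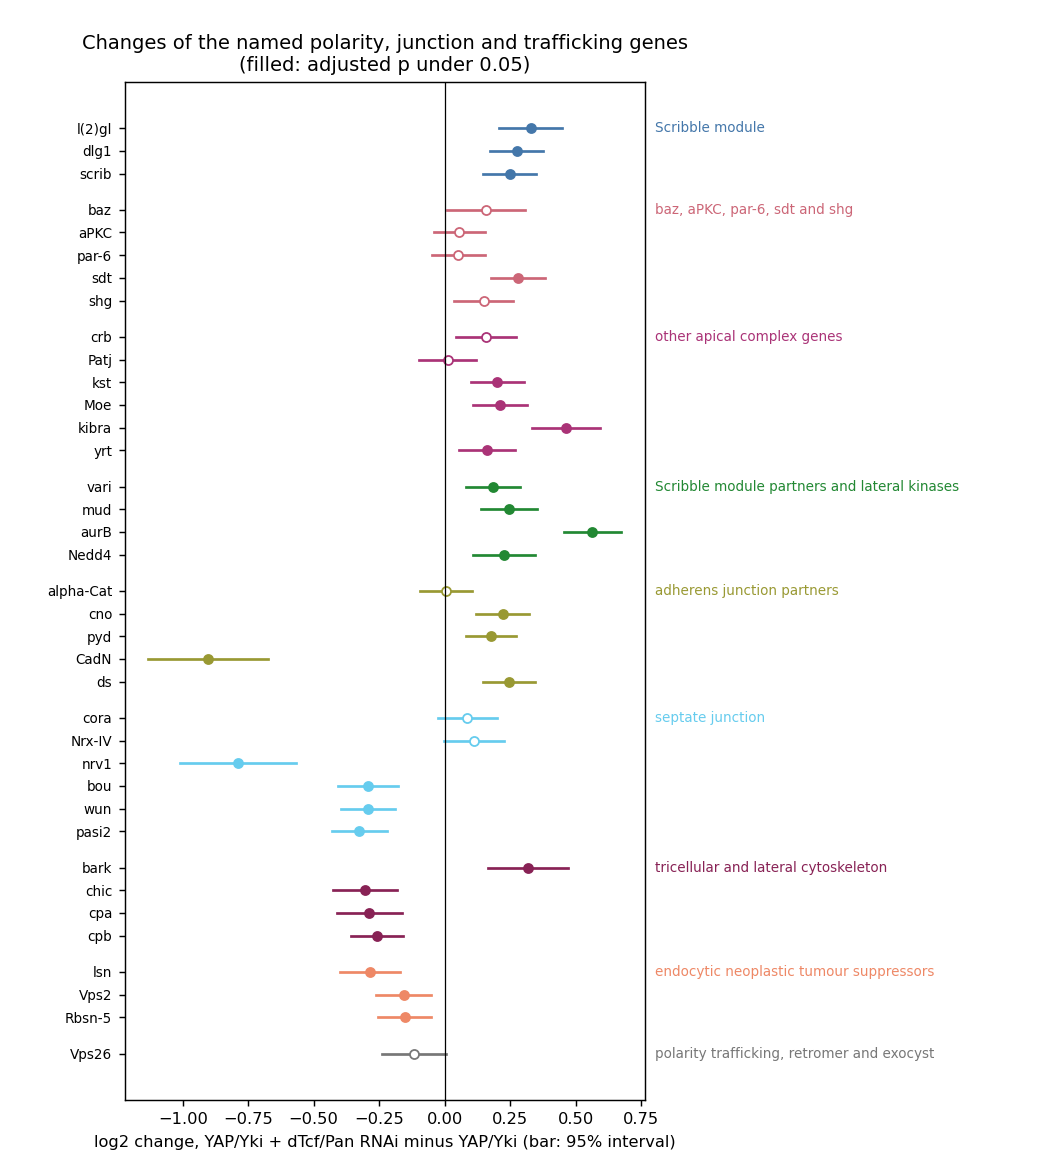
Log2 change (x axis, Pan RNAi minus YAP/Yki alone, bars 95% intervals of the limma fit) of the polarity, junction and trafficking genes chosen by rule, grouped by list; filled points passed an adjusted p of 0.05. All 3 Scribble module genes passed on the right of 0, while the largest falls were those of CadN and nrv1.

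Of 14 measured genes of the lateral cytoskeleton and tricellular junctions, 3 rose and 4 fell, beside 12.1% and 13.4% of all features, with a median of 0.03. The 4 that fell were chic, the profilin gene (−0.30 ± 0.05, adjusted p = 0.00708), cpa (−0.29 ± 0.05) and cpb (−0.26 ± 0.04), the 2 subunits of capping protein, and tsr, the cofilin gene (−0.22 ± 0.05, adjusted p = 0.0203), named after its value was seen. The level of cpb was 8.35, 8.39 and 8.39 without and 8.10, 8.11 and 8.15 with Pan RNAi, and the groups did not overlap. Besides bark, the rises were those of the formin gene dia (0.21 ± 0.05, adjusted p = 0.0288) and of alpha-Spec (0.15 ± 0.04, adjusted p = 0.0351), both named after their values were seen. Other regulators of actin in the list, ena (−0.12 ± 0.05, adjusted p = 0.120) and Rok (0.12 ± 0.05, adjusted p = 0.125), also named after their values were seen, did not pass. These 3 rises were 0 without YAP/Yki replicate 2 or 3, 1 without Pan RNAi replicate 1 or 3, and 2 without YAP/Yki replicate 1 or Pan RNAi replicate 2. The 4 falls were 3 to 4.

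Another class of neoplastic tumour suppressors acts in endocytosis, sorting Crumbs and Notch for degradation. Of its 18 measured genes, 0 rose and 3 fell, beside 12.1% and 13.4% of all features, with a median of −0.05. At an unadjusted p under 0.05 in limma were 4, a threshold that at least 25.5% of all features met. The share that fell was thus near that of all features. The gene lsn, which encodes the ESCRT-II subunit Vps22, was at 10.08, 9.97 and 10.07 without and 9.78, 9.73 and 9.76 with Pan RNAi (change −0.29 ± 0.05, adjusted p = 0.00762). The other two were the ESCRT-III gene Vps2 (−0.16 ± 0.04, adjusted p = 0.0397) and Rbsn-5 (−0.15 ± 0.04, adjusted p = 0.0397), a Rab5 effector. With each array centred on its median these were −0.10 (adjusted p = 0.157) and −0.10 (adjusted p = 0.172). The count of 3 became 1 there, after quantile normalization, and without any single array except YAP/Yki replicate 1, where it was 2. Of 11 measured retromer and exocyst genes, which return Crumbs and E-cadherin to the membrane, 0 passed in limma, beside 25.5% of all features in either direction. Also 0 had an unadjusted p under 0.05 in limma. Whether these few genes differ from other features was not tested. The lowest p there was that of Vps26, a retromer gene (−0.12 ± 0.05, adjusted p = 0.136).

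**Figure D5:**
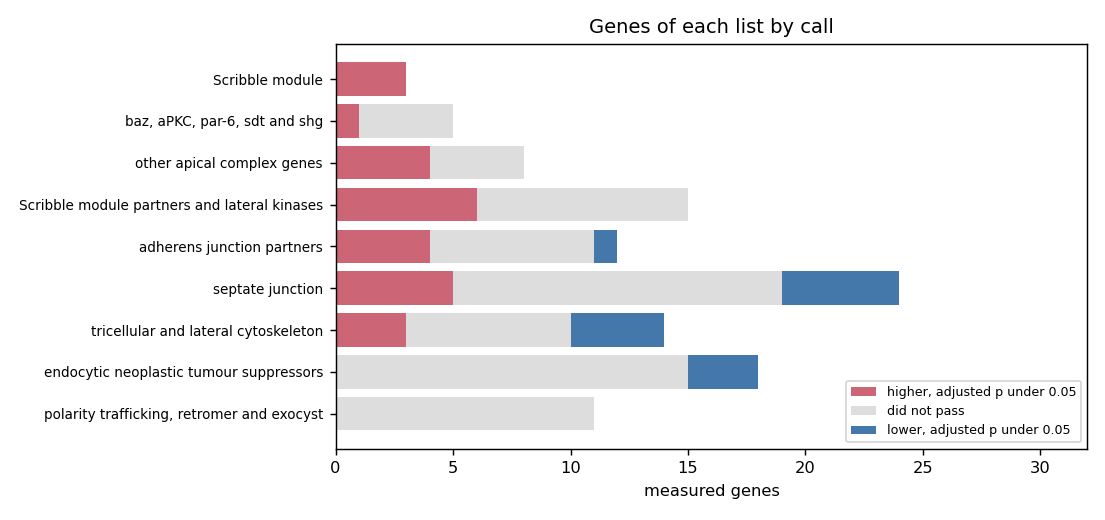
Number of measured genes (x axis) in each list that were higher (red), lower (blue) or did not pass (grey) with Pan RNAi at an adjusted p under 0.05. Rises outnumber falls in the lists of the Scribble module, its partners, apical genes and adherens junction partners, where 12.1% of all features rose. The endocytic list holds 3 falls and 0 rises among 18 genes, where 13.4% of all features fell.

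Counted once each, the 99 measured genes of these lists beyond the 8 comprised 21 that rose and 13 that fell, with a median of 0.00. The shares were 12.1% and 13.4% of all features, and 17.7% and 18.8% of features at the levels of the 8 genes. Shares for features at the levels of these 99 genes were not computed. Genes with a pattern over the 6 arrays most like the mean of l(2)gl, dlg1 and scrib were sought among named genes outside all lists. They were Exn (Pearson r 0.999), the splicing factor gene mbl (0.998), the G1/S cyclin gene CycE (0.997), Ccdc85 (0.997) and ckn (0.997). These values are a description, since the 6 points fall into 2 groups and 65 of the 11303 features (0.575%) reached an r of 0.99 with the module. On the same scale sdt had an r of 0.975, shg 0.886, aPKC 0.902, par-6 0.789 and baz 0.776.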

How the data were processed

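The authors deposited a matrix of log2 levels for 11325 features, and the series matrix differed from it by at most 5e-09. No feature has a third-highest value under 5.91, so features low in most arrays may have been removed. Not given in the sources used here were array normalization and genome build. Per the labels' series text, the submitters used limma with an adjusted p and a 2-fold threshold. Samples were grouped by title. No label says that replicates were separate crosses, and p-values may then reflect technical spread only.

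Genes were named from the platform annotation, with 9975 symbols updated through a RefSeq table of Release 6 plus ISO1 MT. A gene with several features kept the brightest. The groups were compared with limma 3.58.1 (R 4.3.3; lmFit, eBayes, Benjamini-Hochberg over 11303 features), in code tested on simulated data. The number of arrays limits the precision. The 8 genes and 17 lists were chosen with earlier results of these data known. Current symbols replaced 13 list entries, and 2 matched nothing. Named list members are up to 4 with the lowest p among those passing (or the 1 with the lowest p), plus crb, Patj, alpha-Cat, cora and Nrx-IV. Also named are the 5 genes most like the module among named genes outside all lists. Summed levels are log2 of summed linear levels, and dim features have a mean under 7. The alternatives were 2 other scalings, a filter on dim features, 2 other variance models, all features separately, the other table, a replicate block and each array left out.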

Additional observations from a re-analysis of the deposited data

How the results depend on the processing

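The changes of l(2)gl, dlg1, scrib and sdt stayed positive and past an adjusted p of 0.05 in all 14 alternatives, and those of baz, aPKC and par-6 stayed positive and short of it. Only the other scalings and the fits with an array left out can move these changes themselves. The variance models, the filter, the separate features and the replicate block can move only their p. The other table holds nearly the same values and can move neither. For shg the change passed with each array centred on its median (0.203), after quantile normalization (0.174), with dim features left out and with an intensity trend (0.148 in each). With single arrays left out, the changes were 0.296 to 0.359 for l(2)gl, 0.257 to 0.286 for dlg1, 0.229 to 0.257 for scrib, 0.261 to 0.293 for sdt, 0.121 to 0.180 for shg, 0.108 to 0.214 for baz, 0.0486 to 0.0665 for aPKC and 0.0410 to 0.0657 for par-6, and the mean basolateral minus mean apical change (0.147) was 0.136 to 0.158. Features past the adjusted p numbered 2887 and were 1744 to 2435 with 1 array left out. For 43 other named genes of the polarity, junction and trafficking lists (all but nrv2), 602 recomputed changes included 117 that no longer passed, 5 that newly passed and 0 that changed direction with a call. Most of the lost calls came with an array left out or with the replicate block, and the genes named after their values were seen (such as par-1, jub, Cont and alpha-Spec) were among them. The count of adherens partners that fell was 1, or 2 with dim features left out. The median change of all features was 0.0331, or 0.0879 with each array centred on its median. Deviations from the group means correlated at −0.127, −0.098 and 0.162 between same-numbered samples of the 2 groups. Between differently numbered samples the correlations ran from −0.281 (YAP/Yki 3 with Pan RNAi 2) to 0.345 (YAP/Yki 1 with Pan RNAi 2). The main fit used no pairing. With the replicate number as a block, 2159 features passed. The changes of the 8 genes cannot differ there, since the 2 groups hold the same replicate numbers. Their adjusted p can, and it was 0.0262 for l(2)gl (change 0.329) and 0.0334 for scrib (0.248). Rises numbered 1 instead of 4 among the other apical genes, 4 instead of 6 among module partners and 2 instead of 4 among adherens partners. They numbered 1 instead of 5 for septate junctions and 1 instead of 3 for the cytoskeleton, with endocytic falls 1 instead of 3. Brightness near the top of the scale (14.06) can compress changes.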

Other observations

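RNAs made in males varied widely between arrays of the same group. The dosage compensation RNA lncRNA:roX1 was at 12.70, 12.25 and 12.25 in the YAP/Yki arrays and at 11.51, 13.25 and 12.09 in the arrays with Pan RNAi, and lncRNA:roX2 was at 8.56, 7.65 and 7.62 against 6.49, 9.07 and 7.27. The groups overlapped, and 0 of the 7 measured genes of sex composition passed the test in limma, beside 25.5% of all features. At an unadjusted p under 0.05 in limma was 1, a threshold that at least 25.5% of all features met. Of the 7 genes, 3 had a mean level under 7. Both RNAs are named here after their values were seen. Across the same 3 Pan RNAi arrays the SD of the X-linked genes dlg1, par-6 and sdt was 0.03, 0.02 and 0.02, and that of baz, also X-linked, 0.11. Dosage compensation evens X-linked levels between the sexes, so these SDs do not report the sex mix of the samples. The part of sex composition in these values was not tested.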
